A study of Mus musculus with 8 samples.

Results

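Glycolysis turns glucose into pyruvate and lactate, and the hypoxia response raises many of the same genes when oxygen is short. The 34 genes described here are the mouse glucose and lactate carriers, the enzymes of each glycolytic step, the enzymes that regulate the pathway, and the hypoxia-inducible factor gene Hif1a with its hydroxylases and targets. They were taken as a list of symbols chosen with earlier results of these data known. Matched to the Ensembl identifiers of 47069 genes in the count tables, all 34 were found. They were measured by poly-A RNA sequencing in embryonic stem (ES) cells of the mouse, which renew themselves in culture and stand for the early embryo. The groups were double knockout cells made with Cas9 to lack both Pcgf3 and Pcgf5 (DKO), cells lacking Pcgf5 (Pcgf5KO), cells lacking Pcgf3 (Pcgf3KO) and wild type cells (WT), with 2 libraries in each. All groups were of strain C57BL/6 and were grown in fetal calf serum with leukemia inhibitory factor on mouse embryonic fibroblasts inactivated with mitomycin-C. The edited genes encode RING finger subunits of variant Polycomb repressive complexes, whose mark is ubiquitin on a core histone. The labels do not say whether the 2 libraries of a group came from separate clones or cultures, so p-values measure only the spread between these libraries, which may be technical.

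As background, glucose enters through facilitative carriers, is trapped by hexokinase and committed by phosphofructokinase. It is then split by aldolase, and the enzymes from Gapdh to pyruvate kinase recover energy from the products before lactate dehydrogenase regenerates the cofactor. Hypoxia-inducible factor is a transcription factor whose alpha subunit is hydroxylated by oxygen-dependent prolyl hydroxylases and then destroyed. When it persists, it binds short sites with the core ACGTG and raises glycolytic enzymes together with genes such as Bnip3, Vegfa and Egln3. Mouse ES cells are known for a high use of glycolysis even in air.

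The 7 complete tables held 12652616 to 19923964 counts per library, and the 34 genes took 1.81 to 2.32% of them. For WT replicate 1 the table breaks off early and lists 8093 genes with 3459002 counts, including 9 of the 34. For the other 25, WT is therefore the single library WT replicate 2, whose spread is assumed to be that of the other groups, and nothing checks fold changes against it with a second WT library. Pcgf3 was called lower in Pcgf3KO and Pcgf5 in Pcgf5KO, while in DKO neither passed the test against WT (adjusted p = 0.0899 for Pcgf3 and 0.114 for Pcgf5). Pcgf3 reached 86.6 and 67.2 CPM in DKO against 110 in WT, and Pcgf5 reached 13.5 and 13.9 CPM in DKO against 20.7 in WT. A transcript level does not show whether an edited gene still makes protein. All 10 ES cell markers were above 0 in every complete library and summed to 3265 and 3438 CPM in DKO, 3878 and 3904 in Pcgf5KO and 3563 and 3690 in Pcgf3KO, against 3166 in WT. Of these markers 1 was called higher in DKO (Klf4), 3 in Pcgf5KO (Pou5f1, Dppa5a and Tdgf1) and 1 in Pcgf3KO (Dppa5a) against WT. Over all genes tested, 1.33% were higher in DKO, 1.31% in Pcgf5KO and 1.08% in Pcgf3KO. These calls use 1 WT library, and with both WT libraries edgeR did not call Tdgf1 in Pcgf5KO (0.28 ± 0.12, adjusted p = 0.169). The 21 fibroblast markers, for cells of the feeder layer, summed to 142 and 176 CPM in DKO, 161 and 166 in Pcgf5KO, 126 and 140 in Pcgf3KO and 228 in WT, with S100a4 at 0 in every library. WT was the lowest in the ES cell sum and the highest in the fibroblast sum, fibroblast markers were called lower in each knockout (5 of 17 tested in DKO, 1 in Pcgf5KO and 5 in Pcgf3KO), and the part of both marker lists in the results below was not tested. Over all genes tested, 1.89% were lower in DKO, 1.68% in Pcgf5KO and 1.28% in Pcgf3KO. With both WT libraries only Col5a1, Col6a1 and Lum of the fibroblast markers could be tested. In that order they had 0.03, 0.26 and -1.04 in DKO, -0.27, -0.62 and 0.69 in Pcgf5KO and -0.58, -0.62 and -0.59 in Pcgf3KO. Of these changes only that of Col5a1 in Pcgf3KO was called. In bulk RNA, fewer cells of a type and less RNA per cell cannot be told apart.

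Levels are given as CPM, a read count relative to the size of its library as scaled by the TMM method. Divided by the length of each gene's exons to compare genes, the mean over the 7 libraries ranged from 0.554 CPM per kb for the neuronal enolase Eno2 to 1167 CPM per kb for Gapdh. The 8 highest genes were all enzymes of the pathway, from Gapdh, Pkm (942 CPM per kb) and Eno1 (599 CPM per kb) to Tpi1 (133 CPM per kb). The hypoxia genes lay lower, with Bnip3 at 37.5, Hif1a at 23.3, Egln3 at 10.5, Vegfa at 6.07, Ndufa4l2 at 2.12 and Ankrd37 at 0.653 CPM per kb. All 34 genes passed the filter on low counts.

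Against WT, 5 of the 34 genes were called higher and 3 lower in DKO, 8 higher and 2 lower in Pcgf5KO, and 8 higher and 2 lower in Pcgf3KO. A call is an adjusted p of at most 0.05 in the quasi-likelihood test of edgeR over the 15669 genes tested. Over all of those genes, 1.33% were higher and 1.89% lower in DKO, 1.31% higher and 1.68% lower in Pcgf5KO, and 1.08% higher and 1.28% lower in Pcgf3KO. The median log2 fold change of the 34 was 0.10 in DKO, 0.26 in Pcgf5KO and 0.14 in Pcgf3KO, against 0.014, 0.005 and 0.002 over all genes in the same 3 comparisons, which share the WT library. The list was chosen with earlier results of these data known, so setting it beside all genes is a description and not a test. In total 14 of the 34 were called in at least 1 knockout against WT. Bnip3 and Egln3 were higher in all 3 knockouts, and Pfkfb3 was lower in all 3. The number of calls changed when 1 library was left out, while the log2 fold change of every call against WT kept its sign. In Pcgf5KO that of Pfkfb3 stayed between -0.82 and -0.80 and that of Pgk1 between 0.37 and 0.40. Others varied more, such as Pdk1 in Pcgf3KO (0.51 to 0.71). Calls such as Pfkl in Pcgf5KO were also lost without a Pcgf3KO library, which is not part of that comparison. Why the number changed was not tested. Without any 1 library of Pcgf5KO or Pcgf3KO each comparison with WT had fewer calls. Each had more without DKO replicate 1 or 2, whose spread was the widest (correlation of log2 CPM between replicates 0.9852, against 0.9920 in Pcgf5KO and 0.9934 in Pcgf3KO).

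**Figure D1:**
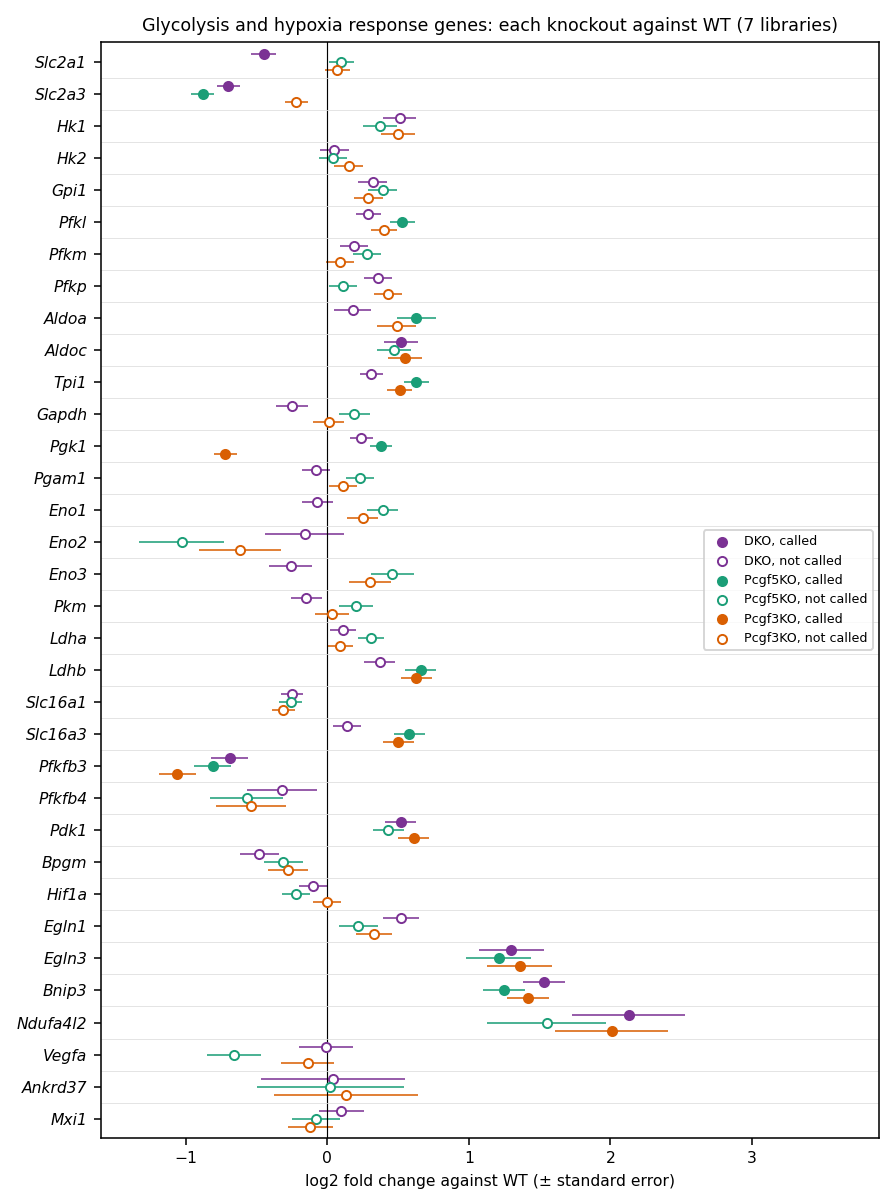
Log2 fold change of each of the 34 genes in DKO, Pcgf5KO and Pcgf3KO against WT, with its standard error, from the fit on 7 libraries. Filled points passed the test and open points did not. Bnip3, Egln3 and Ndufa4l2 lie farthest to the right in all 3 knockouts, Pfkfb3 lies left of 0 in all 3, and Pgk1 lies left of 0 in Pcgf3KO only.

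The highest log2 fold changes against WT were those of 3 hypoxia response genes. Bnip3, which encodes a mitochondrial outer membrane protein that promotes removal of mitochondria, lies at chr7:138890836-138909519 on the minus strand (mm10). It had 114 and 89.7 CPM in DKO, 83.1 and 84.6 in Pcgf5KO and 98.2 and 90.5 in Pcgf3KO, against 35.2 in WT. All 6 knockout libraries were above WT, and their range did not reach it. The share of all genes with the single WT library at the top or bottom is not given, so such an order is only a description here and below. The log2 fold change was 1.53 ± 0.15 in DKO (SE, adjusted p = 0.00135), 1.25 ± 0.15 in Pcgf5KO (adjusted p = 0.00391) and 1.42 ± 0.15 in Pcgf3KO (adjusted p = 0.00219). Bnip3 is listed in all 8 tables, and there the second WT library lay closer to the knockouts. With CPM relative to the counts of the genes in all 8 tables, it had 644 and 507 in DKO, 466 and 473 in Pcgf5KO and 553 and 511 in Pcgf3KO, against 287 and 198 in WT. The fit on 8 libraries gave 1.24 ± 0.16 in DKO (adjusted p = 0.000943), 0.95 ± 0.16 in Pcgf5KO (adjusted p = 0.00518) and 1.13 ± 0.16 in Pcgf3KO (adjusted p = 0.00196). On 7 libraries both calls of Bnip3 in DKO and Pcgf3KO held whichever knockout library was left out, and that in Pcgf5KO missed the threshold without Pcgf5KO replicate 1 or 2. The only WT library of that fit could not be left out.

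Egln3, a prolyl hydroxylase that marks the factor for destruction and is itself a target of it, lies at chr12:54178981-54203860 on the minus strand. It had 36.4 and 24.9 CPM in DKO, 27.3 and 30.4 in Pcgf5KO and 33.8 and 30.0 in Pcgf3KO, against 12.4 in WT. Again the knockout libraries all lay above WT and overlapped one another. The log2 fold change was 1.30 ± 0.23 in DKO (adjusted p = 0.0188), 1.21 ± 0.23 in Pcgf5KO (adjusted p = 0.0282) and 1.36 ± 0.23 in Pcgf3KO (adjusted p = 0.0169). Ndufa4l2, which encodes a mitochondrial protein induced in low oxygen, was close to the limit of detection in WT. Its CPM was 3.11 and 2.92 in DKO, 1.95 and 2.10 in Pcgf5KO and 3.17 and 2.35 in Pcgf3KO, against 0.683 in WT. It rose in DKO (2.13 ± 0.40, adjusted p = 0.0255) and Pcgf3KO (2.01 ± 0.40, adjusted p = 0.0367), and had 1.55 ± 0.42 in Pcgf5KO (adjusted p = 0.094). It is listed in all 8 tables, with 12 counts in each WT library, and there it was higher in all 3 knockouts (2.22 ± 0.32 in DKO, adjusted p = 0.00199, 1.63 ± 0.34 in Pcgf5KO, adjusted p = 0.0183, and 2.09 ± 0.32 in Pcgf3KO, adjusted p = 0.00412). Its exons overlap those of Shmt2 on the other strand by 32 bases, which a kit that does not mark strand cannot separate, and Shmt2 itself was not called against WT. Of the 13 other genes tested within 200 kb of Ndufa4l2, 2 were called in a pairwise comparison and 7 had an unadjusted p under 0.05 in at least 1. The share of all genes with such a p is not given here. Gli1 was lower in DKO than in Pcgf5KO (-0.84, adjusted p = 0.0259) and Pcgf3KO (-1.08, adjusted p = 0.00715), and Lrp1 was higher in DKO than in Pcgf5KO (0.50, adjusted p = 0.0433) and Pcgf3KO (0.63, adjusted p = 0.0193). The calls of Egln3 and Ndufa4l2 were lost without 1 library of Pcgf5KO or Pcgf3KO (adjusted p up to 0.0547 for Egln3 and 0.0731 for Ndufa4l2 in DKO, 0.193 for Egln3 in Pcgf5KO, and 0.126 for Egln3 and 0.24 for Ndufa4l2 in Pcgf3KO), except that Egln3 in DKO was lost only without a Pcgf5KO library. Ndufa4l2 in Pcgf3KO also missed the threshold with DESeq2 (adjusted p = 0.0566) and with the replicate number as a block (adjusted p = 0.0506).

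The promoters of Bnip3, Egln3, Pfkfb3 and Pgk1 are shown as examples of called genes, higher and lower, whose windows hold the letters of the factor's core site. They were picked for holding them. Each line runs 5′ to 3′ on the gene's own strand from 250 bases before the annotated start to 50 after it (RefSeq, GRCm38.p6). The windows are chr7:138909457-138909756 (minus) for Bnip3, chr12:54203825-54204124 (minus) for Egln3, chr2:11553880-11554179 (minus) for Pfkfb3, the farthest upstream of its windows, and chrX:106186850-106187149 (plus) for Pgk1. Capitals mark ACGTG or its reverse complement CACGT.
Bnip3: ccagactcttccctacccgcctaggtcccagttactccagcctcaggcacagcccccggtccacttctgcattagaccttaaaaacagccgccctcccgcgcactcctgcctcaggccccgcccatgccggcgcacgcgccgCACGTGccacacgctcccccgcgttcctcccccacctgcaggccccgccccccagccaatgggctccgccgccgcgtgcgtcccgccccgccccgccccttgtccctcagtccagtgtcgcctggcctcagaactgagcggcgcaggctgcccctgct
Egln3: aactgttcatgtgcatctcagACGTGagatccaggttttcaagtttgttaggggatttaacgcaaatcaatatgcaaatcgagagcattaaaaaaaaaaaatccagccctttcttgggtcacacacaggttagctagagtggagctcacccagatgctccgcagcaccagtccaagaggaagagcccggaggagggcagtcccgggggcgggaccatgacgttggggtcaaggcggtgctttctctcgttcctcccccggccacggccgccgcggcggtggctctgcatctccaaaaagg
Pfkfb3: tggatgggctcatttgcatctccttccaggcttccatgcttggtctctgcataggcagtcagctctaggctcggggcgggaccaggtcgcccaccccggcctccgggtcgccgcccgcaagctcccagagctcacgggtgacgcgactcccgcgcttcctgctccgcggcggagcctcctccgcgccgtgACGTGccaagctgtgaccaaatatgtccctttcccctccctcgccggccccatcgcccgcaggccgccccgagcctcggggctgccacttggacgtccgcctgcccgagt
Pgk1: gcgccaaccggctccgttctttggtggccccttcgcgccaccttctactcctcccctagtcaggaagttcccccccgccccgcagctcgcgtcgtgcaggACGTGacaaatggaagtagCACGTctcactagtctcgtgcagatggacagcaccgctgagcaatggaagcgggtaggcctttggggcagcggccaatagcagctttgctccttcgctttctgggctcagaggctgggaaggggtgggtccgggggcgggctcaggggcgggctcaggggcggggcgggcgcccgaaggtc
The letters ACGTG were searched on both strands. In Bnip3 the pair of matches overlaps as 1 palindrome, CACGTG, at -108 from the start. That palindrome is also the core of the E-box, bound by other factors. Egln3 has a match at -229 and Pfkfb3 one at -60, while Pgk1 has matches at -150 and -131. Of the 34 genes, 32 have a window in the table (not Slc2a3 and Ndufa4l2), and 21 of them (65.6%) hold the letters in at least 1 window, against 21.8% of 27025 genes. Per window this was 25 of 48 (52.1%), against 19.6% of 32851 windows of the same length. The median GC content was 61.6% in the windows of these genes and 52.7% in all windows. The list holds known targets of the factor. No match was found in the windows of Tpi1, Ldhb, Pfkl, Pdk1, Eno1 and Eno3, which were called in at least 1 comparison too. Ldha, Slc16a1, Hif1a, Pfkm, Hk1, Hk2, Pkm, Ankrd37, Egln1, Pgam1, Vegfa and Mxi1 held a match but were called in no comparison on 7 libraries. Bpgm, Eno2, Gpi1, Pfkfb4 and Pfkp were neither called there nor held a match. Whether a match goes with a call was not tested. The letters GCGTG, which differ in the first base, occurred in windows of Ldhb, Pfkl, Pdk1, Eno1 and Eno3 but not Tpi1, and in 32.4% of all windows. A match is a run of letters, not a shown binding site.

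The other 5 hypoxia genes passed no test against WT. Hif1a itself had 142 and 130 CPM in DKO, 129 and 122 in Pcgf5KO and 149 and 143 in Pcgf3KO, against 146 in WT. Its log2 fold change was -0.10 in DKO (95% interval -0.32 to 0.11), -0.22 in Pcgf5KO (-0.44 to 0.00) and -0.00 in Pcgf3KO (-0.22 to 0.22), so a transcript change of the size seen in Bnip3 lies outside these intervals. Vegfa, the vascular growth factor and a classical target, had 33.4 and 26.3 CPM in DKO, 18.5 and 19.5 in Pcgf5KO and 30.9 and 23.6 in Pcgf3KO, against 30.0 in WT. Both Pcgf5KO libraries were the lowest, at a log2 fold change of -0.66 ± 0.19 that did not pass (adjusted p = 0.111). Egln1, the main prolyl hydroxylase in most cells, had 33.9 and 33.4 CPM in DKO, 29.4 and 25.1 in Pcgf5KO and 29.7 and 29.2 in Pcgf3KO, against 23.5 in WT. All 6 knockout libraries lay above the single WT library without a call (adjusted p = 0.0777 in DKO, 0.421 in Pcgf5KO and 0.276 in Pcgf3KO). How many of all genes do so is not given here. Mxi1, which encodes a partner of Max that opposes Myc, ranged from 16.7 to 22.3 CPM over the 7 libraries. Ankrd37 ranged from 0.741 to 1.26 CPM and its exons overlap those of Lrp2bp and Ufsp2 on the other strand.

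**Figure D2:**
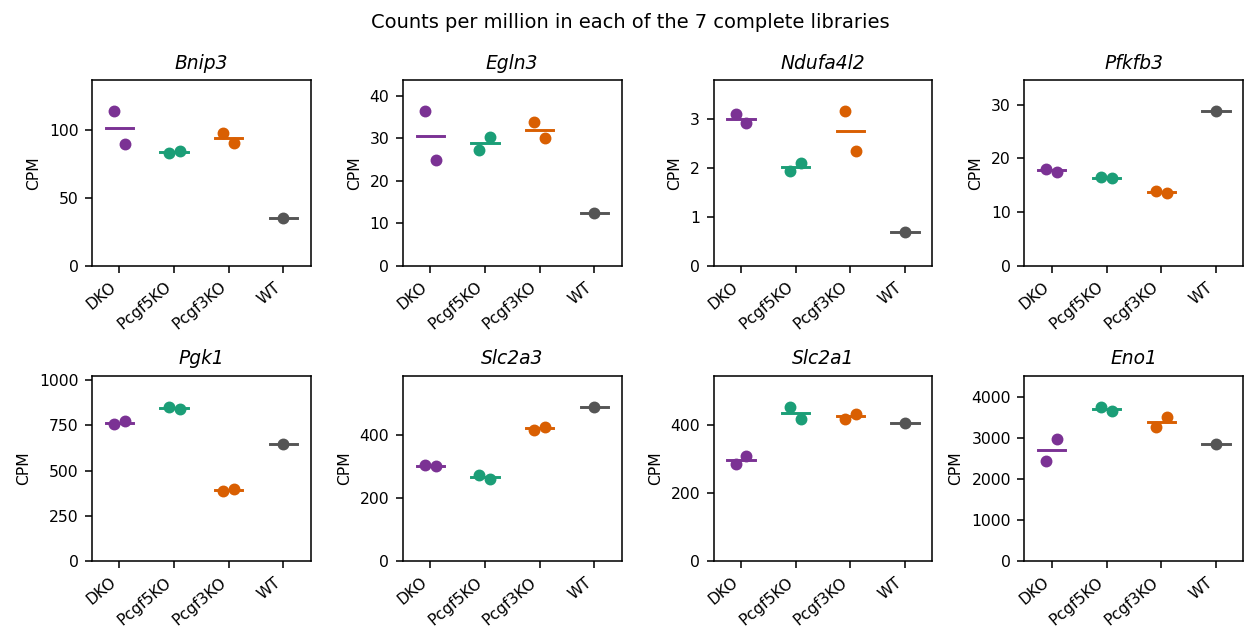
CPM of 8 genes in the 7 complete libraries, with 1 point per library and a line at the group mean. Bnip3, Egln3 and Ndufa4l2 are higher and Pfkfb3 lower in every knockout library than in WT. Pgk1 is lowest in both Pcgf3KO libraries, at 390 and 398 CPM, and Slc2a3 is lowest in both Pcgf5KO libraries, at 274 and 262 CPM.

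Of the glucose carriers, both were called lower in DKO and Slc2a3 also in Pcgf5KO. Slc2a3, the high-affinity carrier also found in neurons, lies at chr6:122727809-122801640 on the minus strand. It had 305 and 301 CPM in DKO, 274 and 262 in Pcgf5KO and 417 and 427 in Pcgf3KO, against 491 in WT. DKO and Pcgf5KO lay below both Pcgf3KO libraries, and all knockout libraries lay below WT. Slc2a3 fell in DKO (-0.70 ± 0.08, adjusted p = 0.00251) and in Pcgf5KO (-0.88 ± 0.08, adjusted p = 0.00117), and had -0.22 ± 0.08 in Pcgf3KO (adjusted p = 0.216). The difference between the knockouts was itself called: -0.48 ± 0.07 in DKO against Pcgf3KO (adjusted p = 0.0115) and -0.66 ± 0.07 in Pcgf5KO against Pcgf3KO (adjusted p = 0.0055). Both calls against WT held whichever knockout library was left out, but WT replicate 2, the only WT library for this gene, could not be. Both calls against Pcgf3KO were lost without any 1 library of Pcgf5KO or Pcgf3KO. Slc2a3 lies near the pluripotency genes Nanog, Gdf3 and Dppa3. Of the 9 other genes tested within 200 kb, 1 was called in any pairwise comparison, Dppa3 in DKO against Pcgf5KO (-0.68, adjusted p = 0.043). Against WT, Dppa3 had -0.05 in DKO, 0.63 in Pcgf5KO and 0.59 in Pcgf3KO, and Nanog had 0.18 in DKO, 0.38 in Pcgf5KO and 0.49 in Pcgf3KO, with no call.

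Slc2a1, the widely used basal carrier, was low in DKO only. It had 284 and 310 CPM in DKO, 454 and 417 in Pcgf5KO and 418 and 433 in Pcgf3KO, against 406 in WT. Both DKO libraries lay below the other 5, and the log2 fold change of DKO was -0.55 ± 0.08 against Pcgf5KO (adjusted p = 0.0157), -0.52 ± 0.08 against Pcgf3KO (adjusted p = 0.0144) and -0.45 ± 0.09 against WT (adjusted p = 0.0331). Each of these calls was lost without any 1 library of Pcgf5KO or Pcgf3KO (adjusted p up to 0.301, 0.258 and 0.11 in that order). With both WT libraries, on the scale of the genes listed in all 8 tables, Slc2a1 had 1608 and 1754 CPM in DKO against 2880 and 2291 in WT. That fit gave -0.62 ± 0.10 in DKO against WT (adjusted p = 0.00479) and -0.54 ± 0.10 against Pcgf5KO (adjusted p = 0.0408, where 1.15% of all genes in that fit were lower), while DKO against Pcgf3KO missed the threshold (-0.51 ± 0.10, adjusted p = 0.0656). As a share of both carriers per kb, Slc2a1 made up 65.8 and 68.1% in DKO, 77.4 and 76.7% in Pcgf5KO and 67.5 and 67.7% in Pcgf3KO, against 63.1% in WT.

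Pgk1, the enzyme of the first energy-yielding step, lies on the X chromosome (chrX:106187100-106203699, plus strand). Among the enzymes from hexokinase to lactate dehydrogenase, Pgk1 alone was called lower in Pcgf3KO against WT. It had 759 and 772 CPM in DKO, 854 and 838 in Pcgf5KO and 390 and 398 in Pcgf3KO, against 649 in WT. Both Pcgf3KO libraries were below WT, and the DKO and Pcgf5KO libraries were all above it. Pgk1 fell in Pcgf3KO against WT (-0.72 ± 0.08, adjusted p = 0.00198), rose in Pcgf5KO (0.38 ± 0.08, adjusted p = 0.0345) and had 0.24 ± 0.08 in DKO (adjusted p = 0.145). It was higher than in Pcgf3KO both in DKO (0.96 ± 0.06, adjusted p = 0.000541) and in Pcgf5KO (1.10 ± 0.06, adjusted p = 0.000283), and these calls held whichever library was left out. Pcgf5KO against Pcgf3KO had few calls in all: 1 of the 34 genes was higher (Pgk1) and 1 lower (Slc2a3), against 0.0893% higher and 0.0511% lower over all genes. Pgk1 and Slc2a3 were singled out with these values already known. The fall in Pcgf3KO missed the threshold without Pcgf3KO replicate 1 (adjusted p = 0.0543), and the rise in Pcgf5KO was lost without any 1 library of Pcgf5KO or Pcgf3KO (adjusted p up to 0.312). The processed copy Pgk1-rs7 took 2.55 to 3.72% of the counts of both in each library, and its own log2 fold change in Pcgf3KO was -0.65 ± 0.19 (adjusted p = 0.118). Whether reads of these near-identical copies were split between them was not tested. Of the 4 other genes tested within 200 kb (Magt1, Cox7b, Atp7a and Taf9b), edgeR called 0 in any pairwise comparison, and 3 had an unadjusted p under 0.05 in at least 1. It also called 0 of 4 around Bnip3 and 0 of 3 around Pfkfb3, with 2 and 0 under that unadjusted p, and no gene within that distance of Egln3 was tested. For all genes the share under that unadjusted p is not given here.

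Among the 18 enzymes from hexokinase to lactate dehydrogenase, 1 was called higher in DKO, 5 in Pcgf5KO and 3 in Pcgf3KO against WT, and 1 was lower in Pcgf3KO (Pgk1). Their log2 fold changes ran from -0.26 to 0.52 in DKO, from -1.03 to 0.66 in Pcgf5KO and from -0.72 to 0.63 in Pcgf3KO, with medians of 0.18, 0.38 and 0.27 in that order. At the first step Hk2, the hexokinase that made up 83.2 to 88.6% of Hk1 and Hk2 per kb, had 350 and 310 CPM in DKO, 321 and 334 in Pcgf5KO and 351 and 358 in Pcgf3KO, against 318 in WT. Hk2 stayed uncalled, and its 95% interval reached at most 0.37 (in Pcgf3KO). Hk1 had 76.3 and 89.5 CPM in DKO, 73.7 and 76.9 in Pcgf5KO and 79.4 and 85.7 in Pcgf3KO, against 58.3 in WT. It was above WT in all 6 knockout libraries but passed only in the fit on 8 libraries, described below.

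Phosphofructokinase, which commits glucose to the pathway, was mostly the liver form Pfkl (58.9 to 64.1% of the 3 forms per kb). Pfkl had 300 and 316 CPM in DKO, 367 and 362 in Pcgf5KO and 319 and 345 in Pcgf3KO, against 252 in WT. It rose in Pcgf5KO (0.53 ± 0.09, adjusted p = 0.0196) and had 0.29 ± 0.09 in DKO (adjusted p = 0.126) and 0.40 ± 0.09 in Pcgf3KO (adjusted p = 0.057). Gpi1 (374 to 505 CPM), Pfkm (68.6 to 86.2 CPM) and Pfkp (78.3 to 109 CPM) had WT as their lowest library, with no call in the fit on 7 libraries, and exons of each overlap a gene on the other strand. Of the aldolases, which split the sugar, Aldoa had 909 and 1182 CPM in DKO, 1447 and 1414 in Pcgf5KO and 1259 and 1344 in Pcgf3KO, against 923 in WT. The 2 DKO libraries lay on either side of WT, and only Pcgf5KO was called (0.63 ± 0.14, adjusted p = 0.0417). Its minor relative Aldoc had 39.8 and 41.3 CPM in DKO, 37.6 and 40.9 in Pcgf5KO and 41.2 and 41.5 in Pcgf3KO, against 28.2 in WT. Aldoc rose in DKO (0.52 ± 0.12, adjusted p = 0.0481) and Pcgf3KO (0.55 ± 0.12, adjusted p = 0.047), close to the threshold, and both calls were lost with DESeq2 (adjusted p = 0.0602 and 0.0503). Tpi1, which interconverts the products of aldolase, had 330 and 345 CPM in DKO, 415 and 428 in Pcgf5KO and 382 and 397 in Pcgf3KO, against 273 in WT. Tpi1 rose in Pcgf5KO (0.63 ± 0.09, adjusted p = 0.00703) and Pcgf3KO (0.51 ± 0.09, adjusted p = 0.0167) and had 0.31 ± 0.08 in DKO (adjusted p = 0.0931). These calls were lost without 1 library of Pcgf5KO or Pcgf3KO (adjusted p up to 0.215 for Pfkl, 0.27 for Aldoa, 0.146 and 0.297 for Aldoc in DKO and Pcgf3KO, and 0.123 and 0.193 for Tpi1 in Pcgf5KO and Pcgf3KO), except that Tpi1 in Pcgf5KO was lost only without a Pcgf5KO library.

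Gapdh, Pgam1, Eno1, Pkm and Ldha showed no call against WT in the fit on 7 libraries, and of these 5 Gapdh and Eno1 were called lower in DKO than in Pcgf5KO. Gapdh, which oxidises the split sugar, had 3612 and 4506 CPM in DKO, 5538 and 5507 in Pcgf5KO and 4788 and 4964 in Pcgf3KO, against 4838 in WT. Eno1, the main enolase at 94.5 to 95.5% of the family per kb, had 2448 and 2993 CPM in DKO, 3775 and 3677 in Pcgf5KO and 3287 and 3513 in Pcgf3KO, against 2852 in WT. Eno3, the muscle form, had 35.7 and 46.0 CPM in DKO, 65.9 and 69.0 in Pcgf5KO and 58.3 and 62.5 in Pcgf3KO, against 49.0 in WT. In each of these genes Pcgf5KO was highest and DKO replicate 1 lowest. DKO against Pcgf5KO had 6 calls lower and 0 higher among the 34, against 1.28% lower and 0.996% higher over all genes, and DESeq2 gave 1 higher. In that comparison 19 of the 34 had an unadjusted p under 0.05 in either direction, for which the share of all genes is not given here. The 6 were Gapdh (-0.44 ± 0.09, adjusted p = 0.0458), Eno1 (-0.45 ± 0.09, adjusted p = 0.0419), Eno3 (-0.72 ± 0.12, adjusted p = 0.0259), Tpi1 (-0.32 ± 0.07, adjusted p = 0.0466), Slc16a3 and Slc2a1. The median of the 34 was 0.01, against 0.015 over all genes. Scaling by total counts alone left 3 of the 6, with Gapdh at an adjusted p of 0.054, Slc16a3 at 0.0503 and Tpi1 at 0.0675, and each of the 6 was lost without any 1 library of Pcgf5KO or Pcgf3KO (adjusted p up to 0.399). Against Pcgf3KO, 3 of the 34 were called in DKO, Pgk1 higher and Slc2a1 and Slc2a3 lower, against 1.74% called in either direction over all genes, with a median of -0.08 (0.012 over all genes).

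Pgam1 ranged from 904 CPM in DKO replicate 1 to 1237 CPM in Pcgf5KO replicate 1, and Pkm, pyruvate kinase, from 3723 to 5386 CPM in the same libraries. Neither was called in any comparison on 7 libraries. Eno2 stayed between 1.60 and 3.59 CPM without a call, with both Pcgf5KO libraries lowest. The pseudogenes that share the protein entry of Gapdh number 234 and held 0.392% of the combined counts, and Pgam1-ps2 held 1.32 to 1.81% of the counts of both in each library.

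At the end of the pathway, Ldha had 1469 and 1627 CPM in DKO, 1825 and 1733 in Pcgf5KO and 1461 and 1577 in Pcgf3KO, against 1431 in WT, with no call. Ldhb, whose subunit favours the use of lactate, had 96 and 111 CPM in DKO, 123 and 131 in Pcgf5KO and 121 and 126 in Pcgf3KO, against 80.2 in WT. Ldhb rose in Pcgf5KO (0.66 ± 0.11, adjusted p = 0.0201) and Pcgf3KO (0.63 ± 0.11, adjusted p = 0.0233), and DKO lay in between (0.37 ± 0.11, adjusted p = 0.126). Its share of both dehydrogenases per kb was 12.1 and 12.5% in DKO, 12.4 and 13.8% in Pcgf5KO and 14.9 and 14.4% in Pcgf3KO, against 10.6% in WT. Of the lactate carriers, Slc16a3, the exporter of glycolytic cells, had 145 and 162 CPM in DKO, 211 and 203 in Pcgf5KO and 188 and 205 in Pcgf3KO, against 139 in WT. It rose in Pcgf5KO (0.58 ± 0.11, adjusted p = 0.0261) and Pcgf3KO (0.50 ± 0.11, adjusted p = 0.0451), had 0.14 ± 0.10 in DKO (adjusted p = 0.492), and was lower in DKO than in Pcgf5KO (-0.43 ± 0.08, adjusted p = 0.0383). Slc16a1, the general carrier, had 237 and 233 CPM in DKO, 231 and 237 in Pcgf5KO and 223 and 228 in Pcgf3KO, against 280 in WT. All knockout libraries of Slc16a1 lay below WT at -0.25 in DKO, -0.26 in Pcgf5KO and -0.31 in Pcgf3KO, which did not pass (lowest adjusted p 0.0858). Slc16a3 made up 33.7 and 36.6% of both carriers per kb in DKO, 43.3 and 41.6% in Pcgf5KO and 41.2 and 42.8% in Pcgf3KO, against 29.3% in WT. The calls of Ldhb and Slc16a3 were lost without any 1 library of Pcgf5KO or Pcgf3KO (adjusted p up to 0.21 for Ldhb and 0.374 for Slc16a3).

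**Figure D3:**
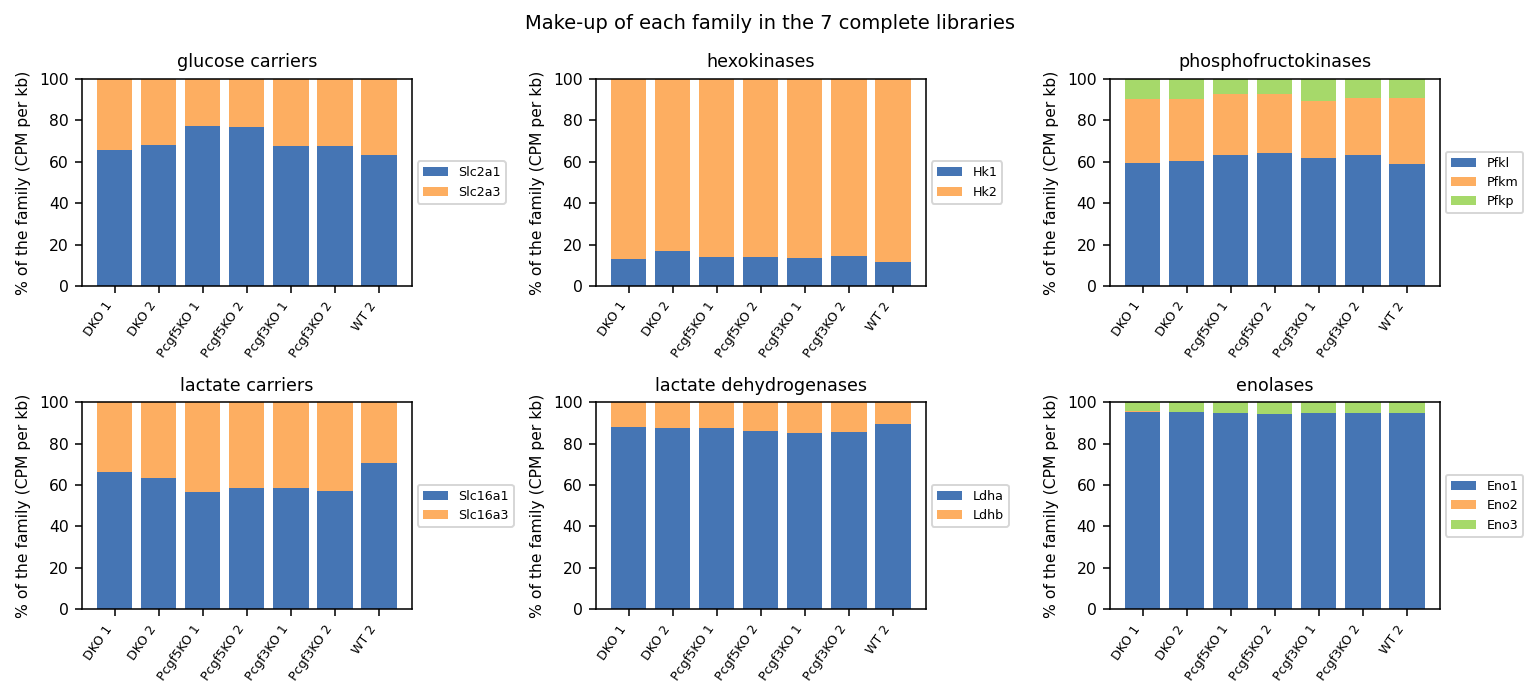
Share of each member within 6 families in the 7 complete libraries, from CPM per kb of exon, stacked to 100%. The Slc2a1 share is largest in Pcgf5KO, at 77.4 and 76.7%, the Slc16a3 share is smallest in WT, at 29.3%, and Hk2, Ldha and Eno1 dominate their families in every library.

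The regulators moved in both directions. Pfkfb3, which makes the sugar bisphosphate that activates phosphofructokinase, lies at chr2:11471433-11554077 on the minus strand. It had 18.1 and 17.5 CPM in DKO, 16.5 and 16.3 in Pcgf5KO and 13.9 and 13.6 in Pcgf3KO, against 28.8 in WT. All 6 knockout libraries lay below WT and the 3 knockouts did not overlap one another. Between any pair of knockouts, 23 to 27.7% of all 15669 genes lay apart in each direction, so such gaps were common. Pfkfb3 fell in DKO (-0.69 ± 0.13, adjusted p = 0.0238), Pcgf5KO (-0.81 ± 0.13, adjusted p = 0.0152) and Pcgf3KO (-1.06 ± 0.13, adjusted p = 0.00426). No pair of knockouts differed past the threshold (lowest adjusted p 0.138, DKO against Pcgf3KO). Pdk1, the kinase that inactivates pyruvate dehydrogenase, had 244 and 258 CPM in DKO, 226 and 245 in Pcgf5KO and 287 and 250 in Pcgf3KO, against 175 in WT. Pdk1 rose in DKO (0.52 ± 0.11, adjusted p = 0.0376) and Pcgf3KO (0.61 ± 0.11, adjusted p = 0.0224) and had 0.43 ± 0.11 in Pcgf5KO (adjusted p = 0.0791). Pfkfb4, a relative of Pfkfb3, lay at 4.08 to 5.83 CPM in the knockouts and 6.43 in WT, and Bpgm, the bisphosphoglycerate mutase, at 17.2 to 21.5 CPM in the knockouts and 25.3 in WT, without a call. The calls of both Pdk1 and Pfkfb3 were lost without 1 library of Pcgf5KO or Pcgf3KO (adjusted p up to 0.206 for Pdk1 and 0.179 for Pfkfb3), except that Pfkfb3 in Pcgf3KO was lost only without a Pcgf3KO library (adjusted p up to 0.0746).

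With both WT libraries, 9 of the 34 genes could be tested over the 2702 genes listed in all 8 tables that passed the filter. In DKO 4 were called higher and 1 lower, in Pcgf5KO 7 were higher, and in Pcgf3KO 4 were higher. Over all genes in that fit, 4.40% were higher and 3.70% lower in DKO, 4.33% higher and 4.29% lower in Pcgf5KO, and 3.18% higher and 2.33% lower in Pcgf3KO. Hk1 had 431 and 506 CPM in DKO, 413 and 430 in Pcgf5KO and 447 and 484 in Pcgf3KO, against 289 and 329 in WT. It rose in DKO (0.60 ± 0.10, adjusted p = 0.00553), Pcgf5KO (0.45 ± 0.10, adjusted p = 0.0251) and Pcgf3KO (0.59 ± 0.10, adjusted p = 0.00785). Ldhb had 543 and 625 CPM in DKO, 689 and 735 in Pcgf5KO and 683 and 713 in Pcgf3KO, against 429 and 452 in WT. In this fit Ldhb rose in DKO too (0.41 ± 0.09, adjusted p = 0.02), beside Pcgf5KO (0.69 ± 0.09, adjusted p = 0.00115) and Pcgf3KO (0.66 ± 0.09, adjusted p = 0.00192). Pfkm (0.37 ± 0.09, adjusted p = 0.0306), Aldoa (0.47 ± 0.12, adjusted p = 0.0367) and Eno1 (0.34 ± 0.09, adjusted p = 0.0391) rose in Pcgf5KO. Pgam1 was not called in any comparison.

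**Figure D4:**
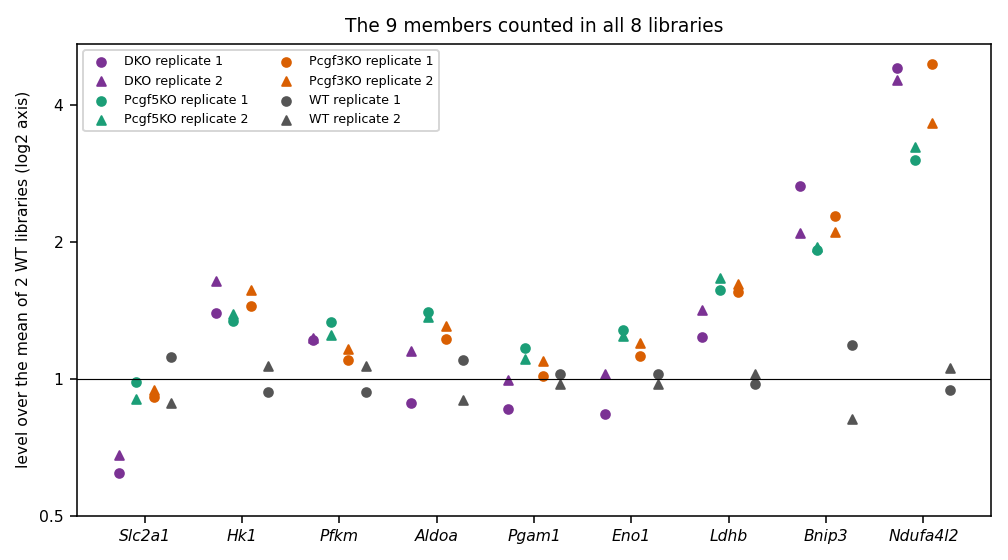
Level of the 9 genes counted in all 8 libraries, each divided by the mean of both WT libraries, on a log2 axis, with 1 point per library. In Ndufa4l2, Bnip3, Ldhb, Hk1 and Pfkm all knockout libraries lie above both WT libraries. In Slc2a1 both DKO libraries lie below all others, and the WT libraries lie farthest apart in Bnip3 (287 and 198 CPM).

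For 12 of the 34 genes the change in DKO differed from the sum of the changes in the single knockouts. The interaction subtracts the summed changes of Pcgf5KO and Pcgf3KO from that of DKO. It was called below 0 in 10 of the 34 and above 0 in 2, against 2.02% and 1.77% over all genes. The median of the 34 was -0.36, against 0.008 over all genes. The same WT library enters each of the 3 changes, so an error in it enters the interaction of every gene. Bnip3 changed by 1.53 in DKO against a sum of 2.67 (interaction -1.14 ± 0.19, adjusted p = 0.0132), and Egln3 by 1.30 against 2.57 (-1.27 ± 0.28, adjusted p = 0.0411). In these genes each single knockout alone had about the change of DKO, and DKO did not differ from either past the threshold. Aldoa, Eno1 and Ldhb were called below 0 as well, and these 3 and Bnip3 were also called in the fit with both WT libraries (-0.78 ± 0.17, -0.66 ± 0.12, -0.95 ± 0.13 and -0.84 ± 0.22 in that order, adjusted p = 0.0256, 0.013, 0.00284 and 0.0429). That fit called 3.40% of all genes below 0 and 3.52% above. The interaction of Slc2a1 (-0.62 ± 0.12, adjusted p = 0.0281) missed the threshold there (-0.43 ± 0.15, adjusted p = 0.0966). Above 0 were Pfkfb3 (1.18 ± 0.17, adjusted p = 0.00894), whose falls did not add up, and Pgk1 (0.58 ± 0.10, adjusted p = 0.0156), whose changes in the single knockouts had opposite signs. Each interaction called on 7 libraries was lost without any 1 library of Pcgf5KO or Pcgf3KO (adjusted p up to 0.19). That of Egln3 was also lost with scaling by total counts (adjusted p = 0.0629).

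**Figure D5:**
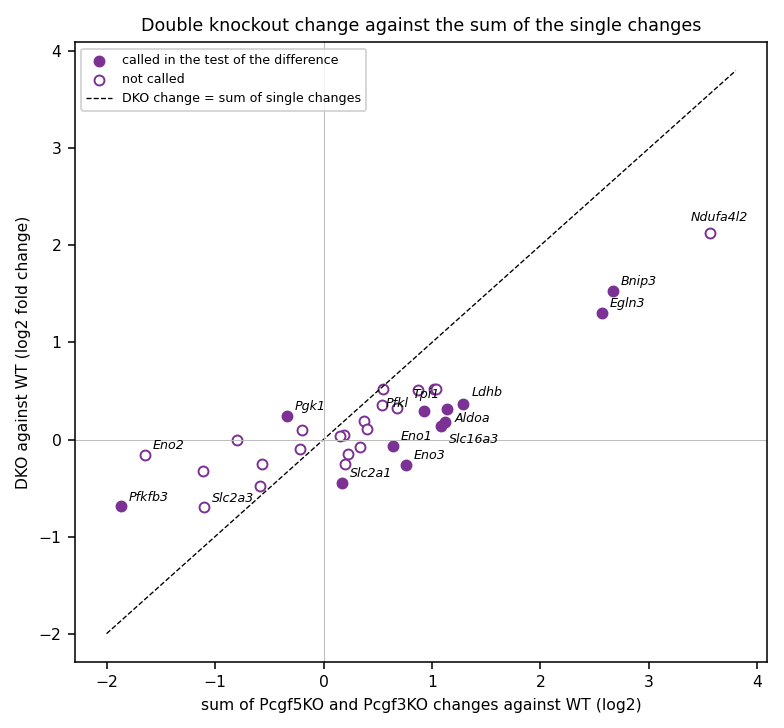
Log2 fold change of DKO against WT for each of the 34 genes, plotted against the sum of the changes of Pcgf5KO and Pcgf3KO against WT, both of which use the same WT library. Filled points passed the test of the interaction and the dashed line marks equality. Of the 12 filled points, 10 lie below the line and 2 (Pgk1 and Pfkfb3) above it.

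Among 30 further targets and sensors of the hypoxia-inducible factor, 0 were called higher and 1 lower in DKO against WT, 0 higher and 2 lower in Pcgf5KO, and 0 higher and 1 lower in Pcgf3KO by edgeR. Over all genes tested, 1.33% were higher and 1.89% lower in DKO, 1.31% and 1.68% in Pcgf5KO, and 1.08% and 1.28% in Pcgf3KO. At an unadjusted p under 0.05 in either direction there were 10 in DKO, 11 in Pcgf5KO and 7 in Pcgf3KO, and the median log2 fold changes were 0.04, -0.08 and -0.00 in that order. No share of all genes at that unadjusted p is given here. Cited2, which competes with the factor for its coactivators, had 40.7 and 32.5 CPM in DKO, 40.9 and 36.8 in Pcgf5KO and 37.5 and 42.3 in Pcgf3KO, against 63.6 in WT. It fell in DKO (-0.80 ± 0.15, adjusted p = 0.0239) and Pcgf5KO (-0.71 ± 0.15, adjusted p = 0.0399). With both WT libraries it fell in all 3 knockouts, with -0.87 ± 0.12 in DKO (adjusted p = 0.0018), -0.80 ± 0.12 in Pcgf5KO (adjusted p = 0.00377) and -0.75 ± 0.12 in Pcgf3KO (adjusted p = 0.00558). Plod2, a collagen-modifying enzyme, fell in Pcgf5KO (-0.67 ± 0.13, adjusted p = 0.0279) and Pcgf3KO (-0.59 ± 0.12, adjusted p = 0.0435), and both calls were also made with both WT libraries (adjusted p = 0.00426 and 0.0103). That fit called Ccng2 (-0.92 ± 0.22, adjusted p = 0.0307) and Ero1l (-0.47 ± 0.13, adjusted p = 0.05) lower in Pcgf5KO as well. Of this list it tested only Cited2, Plod2, Ccng2, Ero1l, Adm, P4ha2, Higd1a, Kdm3a and Vhl. Over all genes in that fit, 3.70% were lower in DKO, 4.29% in Pcgf5KO and 2.33% in Pcgf3KO.

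In DKO against Pcgf5KO, Ero1l (0.72 ± 0.13, adjusted p = 0.03) and Car12 (0.75 ± 0.16, adjusted p = 0.0463) were higher, and in DKO against Pcgf3KO Anxa2 was lower (-0.74 ± 0.09, adjusted p = 0.00665). The interaction in this list was called above 0 in Plod2 (0.87) and below 0 in Anxa2 (-0.67) on 7 libraries. With both WT libraries it was called above 0 in 5 genes, Ccng2 (1.32), Plod2 (0.83), Ero1l (0.75), Cited2 (0.67) and P4ha2 (0.64). Of this list that fit tested only these and Adm, Higd1a, Kdm3a and Vhl, which were not called. Over all genes in that fit, 3.52% were called above 0. Of 26 other enzymes of glucose use 19 were tested, and Ldhd, the dehydrogenase of the mirror-image lactate, rose in Pcgf5KO (1.22 ± 0.27, adjusted p = 0.0486) and Pcgf3KO (1.55 ± 0.27, adjusted p = 0.0184). Pgm1 rose in Pcgf5KO (0.65 ± 0.11, adjusted p = 0.0212) and in Pcgf3KO (0.57 ± 0.11, adjusted p = 0.0352), and Fbp2 was higher in DKO than in Pcgf5KO (1.56 ± 0.33, adjusted p = 0.0483). The interaction of Ldhd (-1.78), Pgm1 (-0.85) and Pck2 (-0.83) was called below 0. Mxd3, a relative of Mxi1, had an interaction of -1.30 on 7 libraries and -1.12 with both WT libraries, both called, and with both WT libraries it was higher in Pcgf5KO (0.63 ± 0.17, adjusted p = 0.0462). Max, their partner, was lower in DKO in that fit (-0.34 ± 0.08, adjusted p = 0.0229).

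Genes of pyruvate oxidation and the tricarboxylic acid cycle, into which pyruvate passes when it is not made into lactate, gave 0 calls by edgeR among 29 tested in each of the 7 comparisons. Over all genes at most 2.02% were called in 1 direction in any of these comparisons, so a list of this length would hold few calls at that share. Between 1 and 12 of the 29 per comparison had an unadjusted p under 0.05, for which no share of all genes is given here. Of the 7 genes of the pentose phosphate pathway, G6pdx and Pgd, enzymes of its oxidative arm, were called lower in DKO than in Pcgf5KO. G6pdx had 96.9 and 133 CPM in DKO against 175 and 176 in Pcgf5KO (-0.61 ± 0.13, adjusted p = 0.0466). Pgd had 369 and 475 CPM in DKO against 681 and 679 in Pcgf5KO (-0.69 ± 0.11, adjusted p = 0.0228). Pgls, the enzyme between them, had 27.3 and 40 CPM in DKO against 42.6 and 45.7 in Pcgf5KO and was not called (-0.39 ± 0.18, adjusted p = 0.206). The interaction of Pgd was called too (-0.84 ± 0.17, adjusted p = 0.0319). Neither G6pdx nor Pgd was called against WT, and as in Gapdh and Eno1 DKO replicate 1 was their lowest library.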

How the data were processed

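Mouse ES cell poly-A RNA was sequenced in 8 libraries. Each deposited table gives whole reads counted per Ensembl gene as raw counts, per the file headers and the values. The submitters' processing notes name TopHat2 2.0.12, Cufflinks 2.2.1, HTSeq 0.6.0 and mm10, without roles. Annotation release and strand setting: not given in the sources used here. The library kit named in the labels' protocols does not mark strand. The table of WT replicate 1 ends after 8093 of 47069 genes, and genes missing from it were treated as not measured.

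Counts were tested with edgeR 4.0.16 in R 4.3.3 (glmQLFit, glmQLFTest, TMM, filterByExpr, group as the only term), with Benjamini-Hochberg adjusted p-values over all genes tested. The fit on 7 complete libraries held 15669 genes (3 residual degrees of freedom), and that on 8 libraries 2702 genes (4). The step was tested on simulated data. Alternatives were DESeq2 1.42.0, other scalings, no filter, a replicate block and leaving out each library. The 34 genes and all lists were chosen with earlier results of these data known. All 34 are accounted for. Those called in any comparison are named with their libraries, and genes of the other pathway lists when called with a fold of at least 1.5. Marker lists are given mainly as sums and counts. Symbols come from GENCODE M21, and gene positions from the deposited tables.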

Additional observations from a re-analysis of the deposited data

Results flagged for a closer look

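For 12 of the 34 genes the change in DKO differed from the sum of the changes in the single knockouts, by a test of that difference over 15669 genes (the interaction in the quasi-likelihood test of edgeR on 7 libraries, with 1 WT library). It was below 0 in Egln3 (-1.27), Bnip3 (-1.14), Eno3 (-1.03), Aldoa (-0.95), Slc16a3 (-0.93), Ldhb (-0.92), Tpi1 (-0.84), Eno1 (-0.71), Pfkl (-0.64) and Slc2a1 (-0.62), and above 0 in Pfkfb3 (1.18) and Pgk1 (0.58), on the log2 scale. Aldoa, Eno1, Ldhb and Bnip3 were called in the fit with both WT libraries too. All 12 were lost without any 1 library of Pcgf5KO or Pcgf3KO.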

How the results depend on the processing

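Size factors kept every count of called genes within 1.5 times that given in the report. Without a filter on low counts, genes higher against WT numbered 8 in DKO (5 with the filter), 15 in Pcgf5KO (8) and 13 in Pcgf3KO (8), genes lower in DKO numbered 12 against Pcgf5KO (6) and 8 against Pcgf3KO (2), genes higher in DKO than in Pcgf5KO 2 (0), genes lower in Pcgf5KO than in Pcgf3KO 2 (1), and interactions above 0 numbered 5 (2). DESeq2 gave 4 genes lower in DKO than in Pcgf3KO (2 with edgeR) and 1 higher in DKO than in Pcgf5KO (0). Total counts alone gave 3 lower in DKO than in Pcgf5KO (6). The median of all genes then ran from -0.038 (Pcgf5KO against WT) to 0.099 (interaction), where the main fit had 0.005 and 0.008. The cause of these differences was not tested, and the share of all genes called under each setting is not given here. With the replicate block the counts lower in DKO were 10 against Pcgf5KO and 4 against Pcgf3KO, with 1 higher than in Pcgf5KO. The replicate numbers share no stated source, and same-numbered libraries did not deviate together in every pair (correlations -0.014, 0.135 and 0.010 among the knockouts).

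Leaving out 1 library at a time, genes higher against WT ranged from 1 to 16 in DKO, 0 to 20 in Pcgf5KO and 1 to 17 in Pcgf3KO, and genes lower from 1 to 10, 1 to 8 and 0 to 4 in that order. Higher in DKO against Pcgf5KO ranged from 0 to 9 and lower from 0 to 13, higher in DKO against Pcgf3KO from 1 to 6 and lower from 0 to 12, higher in Pcgf5KO against Pcgf3KO from 1 to 7 and lower from 0 to 6, and interactions above 0 from 0 to 7 and below 0 from 0 to 19. The low ends came without a Pcgf5KO or Pcgf3KO library and the high ends without a DKO library. The shares of all genes called in those fits are not given here, so the ranges describe the fits and not the list. Of 51 calls, 6 held whichever library was left out (Bnip3 in DKO and Pcgf3KO, Slc2a3 in DKO and Pcgf5KO against WT, Pgk1 in DKO and Pcgf5KO against Pcgf3KO), and 44 held under the 5 other settings. Comparisons with WT could not be made without WT replicate 2, the only complete WT table. With both WT libraries, the uncalled change of Slc2a1 turned to -0.08 in Pcgf5KO and -0.11 in Pcgf3KO (0.10 and 0.07 on 7 libraries). Ankrd37, Ndufa4l2, Eno2 and Pfkfb4 had the fewest counts, which limits their precision.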
